A study of Mus musculus with 32 samples.

Results

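Adult oligodendrocyte progenitor cells (OPCs) treated with lysine acetyltransferase inhibitors were compared with adult OPCs treated with an inhibitor of the SUV420 histone methyltransferases. The members were the 4 KATi and the 4 SUV420i columns of adult cells in the deposited count table, 8 of the 32 libraries of the series, and each group held letters A, B, C and D once. The cells came from wild-type (WT) C57BL/6 mice at postnatal day 60, were taken from cortex by the O4 surface antigen, and grew in a serum-free medium (SATO) with forskolin and the mitogens PDGF-AA and bFGF, which keep progenitors dividing. KATi cultures received garcinol at 5 µM together with NU-9056 at 0.2 µM, SUV420i cultures A-196 at 5 µM, and each treatment lasted 48 h. Adult cultures given 0.02% DMSO for 48 h (4 libraries) gave background levels, and untreated adult cultures (2 libraries) gave levels of a few genes only. In addition, 10 KATi and SUV420i libraries of neonatal OPCs gave the same comparison in other cells. The KATi group is a mixture of agents at 1 dose and the SUV420i group 1 agent at 1 dose, so no dose series stands behind either. O4 is carried by OPCs and by later stages of the lineage, so the selection does not hold the cells at 1 stage.

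OPCs are the dividing glia of the brain that give rise to myelinating oligodendrocytes, and in the adult they divide slowly and keep a pool of progenitors. Lysine acetyltransferases add acetyl groups to histone tails, a mark found at open and active chromatin. Garcinol is known to inhibit p300 (Ep300) and PCAF (Kat2b), and NU-9056 TIP60 (Kat5). SUV420H1 and SUV420H2, encoded by Kmt5b and Kmt5c, turn monomethylated lysine 20 of histone H4 into the dimethylated and trimethylated forms, the latter a mark of compact chromatin, and A-196 inhibits both.

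KATi libraries held 26.9 to 37.8 M counts and SUV420i libraries 31.8 to 35.6 M. Mitochondrial transcripts took a larger share in KATi than in SUV420i in each of the 4 letters, 3.08% to 4.22% against 2.71% to 3.2%, and the DMSO libraries spanned 2.74% to 4.5%. The part of that share in the results was not tested. Letters stood apart in the level of a myelin gene, whatever the treatment. Mbp, which encodes myelin basic protein, lay between 6.73 and 13.1 CPM (counts per M counts of a library) in the KATi and SUV420i libraries of letters A and B and between 157 and 364 CPM in those of letters C and D. Same-letter libraries deviated together, those of letter D least, so the letter was a block in the test and each gene was read within letters. Whether letters came from different mice is not in the labels, and a p-value here speaks for the variation among these cultures alone.

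Of 17953 genes tested, 335 (1.87%) passed an adjusted p of 0.05 in edgeR's quasi-likelihood test with the letter as block. Of these, 123 (0.685%) were higher and 212 (1.18%) lower with KATi than with SUV420i. Below, a gene that rose or fell did so with KATi relative to SUV420i, and not to DMSO. The changes were small: the median size of a called difference was 1.51-fold, and 35 genes differed by more than 2-fold, 11 of them higher and 24 lower. The direction was the same in all 4 letters for 334 of the 335, against 25.1% of all genes. The 2 groups' libraries did not overlap for 50 of them, against 2.36% of all genes. The 335 genes were chosen by a test within letters on these same libraries, which favours both counts, so both are descriptions. The calls rest on comparing libraries within letters: fitted by group alone, edgeR called 0 genes, with 598 at an unadjusted p below 0.05. They also rest on letters A and C, since 69 genes were called without letter A and 29 without letter C, against 671 without B and 186 without D. Letters C and D alone gave 165 calls, 101 of them shared with the 335, and letters A and B alone gave 0 in edgeR, with 1525 genes at an unadjusted p below 0.05.

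**Figure D1:**
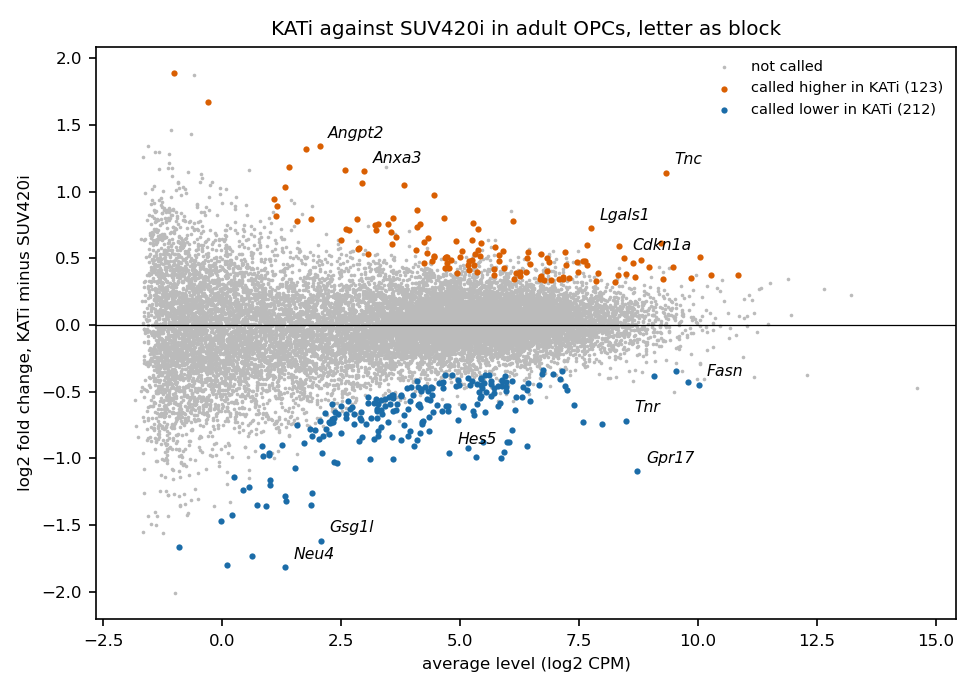
Log2 fold change of KATi minus SUV420i (vertical axis) against the average level in log2 CPM (horizontal axis) for each of the 17953 genes in adult OPCs. Orange points are the 123 genes called higher and blue points the 212 called lower in KATi, and the largest differences sit among genes of low level while Tnc and Gpr17 stand out among genes of high level.

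The enzymes that the inhibitors act on did not differ in transcript level beyond the spread. Kat5, the catalytic subunit of the TIP60 complex, stood at 50, 36, 43.4 and 42.8 CPM in KATi letters A to D and at 47.7, 42.1, 44.7 and 43.8 CPM in SUV420i. The log2 difference, KATi minus SUV420i throughout, was -0.07 ± 0.08 (SE, 4 libraries a group, edgeR adjusted p = 0.729). For the coactivator acetyltransferases Ep300, Crebbp and Kat2b it was -0.06, -0.04 and 0.06, with edgeR adjusted p-values of 0.777, 0.876 and 0.775. Kmt5b and Kmt5c had differences of -0.19 ± 0.09 and -0.13 ± 0.08 (edgeR adjusted p = 0.283 and 0.456). Transcript levels do not measure enzyme activity or histone marks, and no histone mark was analysed here.

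Among 19 measured lysine acetyltransferases 1 was called, or 5.26% against 1.87% of all genes tested, so the count rests on a single gene. Hat1, which acetylates newly made histone H4 before it enters chromatin, rose 1.47-fold. It stood at 75.6, 81, 52.1 and 67.3 CPM in KATi letters A to D and at 43, 67.6, 28 and 54.1 CPM in SUV420i (log2 difference 0.56 ± 0.11, edgeR adjusted p = 0.0329). It was higher with KATi in every letter, while the groups' ranges overlapped. The difference was 0.46 without letter A and 0.46 without letter C, and in both cases the call ended. In 18 subunits of the TIP60 complex and 23 bromodomain readers of acetyl-lysine, edgeR, DESeq2 and limma voom called 0, with 0 and 3 at an unadjusted p below 0.05. Of 18 enzymes and readers of H4K20 methylation edgeR called 0, with 3 at an unadjusted p below 0.05, and DESeq2 called 1. The monomethyltransferase Kmt5a lay at 0.34 ± 0.09 (edgeR adjusted p = 0.0698).

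A few genes that mark the progenitor and the committed precursor stage fell with KATi, while the receptors that define OPCs did not pass the test. Of 22 OPC markers, 3 fell (Neu4, Tnr and Sox4) and 0 rose, or 13.6% called against 1.87% of all genes. At an unadjusted p below 0.05, 11 were lower and 0 higher. The list's median log2 difference was -0.205, with 17 of 22 negative, against a median of 0.004 and 49.3% negative over all genes. Of 16 markers of committed precursors, 3 fell (Gpr17, Lims2 and Mycl) and 0 rose (18.8% called), and the median was -0.12. Within letters A to D the median of these 16 was -0.255, -0.123, -0.212 and 0.016, with 10 of 16 higher with KATi in letter D. In bulk RNA, fewer cells of a type and less RNA per cell cannot be told apart.

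Gpr17 encodes a receptor that oligodendrocyte precursors carry for a short window before they mature, and it restrains maturation. Its level was 463, 29, 231 and 226 CPM in KATi letters A to D, 1303, 47.2, 726 and 309 CPM in SUV420i, and 780, 48.2, 479 and 501 CPM in DMSO. Every letter was lower with KATi than with SUV420i, and letter B lay far below the other letters in each group. The fall was 2.14-fold (log2 difference -1.10 ± 0.17, edgeR adjusted p = 0.0136). It was -0.89 without letter C, where the call ended. Lims2, which overlaps Gpr17 on the opposite strand, fell as well (-0.80 ± 0.14, edgeR adjusted p = 0.0230), and without a stated strand setting the reads of the 2 genes cannot be told apart. The call on Lims2 ended without letter A (-0.80) or C (-0.65).

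Neu4, a sialidase that trims sialic acid from glycans and is enriched in progenitors, showed the largest fall among the called genes. It stood at 1.63, 0.327, 1.19 and 0.862 CPM in KATi letters A to D and at 5.87, 0.732, 5.77 and 2.34 CPM in SUV420i. Each letter was lower with KATi, by 3.52-fold in the fit (log2 difference -1.81 ± 0.22, edgeR adjusted p = 0.00427), and the call held without any single letter. DMSO libraries held 2.81, 0.461, 3.15 and 3.88 CPM, above KATi in all 4 letters. Tnr (ENSMUSG00000015829, GRCm38 chr1:159523769-159931729, plus strand) encodes tenascin-R, an extracellular matrix protein of perineuronal nets that OPCs and young oligodendrocytes secrete. Its level was 345, 265, 228 and 197 CPM in KATi and 771, 360, 341 and 308 CPM in SUV420i. Letter A of SUV420i lay far above the other SUV420i libraries, and the fall without letter A was still called (-0.58, against -0.72 ± 0.11 and an edgeR adjusted p of 0.0107 with all letters). In the blocked fit of 26 libraries of both ages the call on Tnr ended, with an estimate of -0.73 and an edgeR adjusted p of 0.0644.

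The transcription factor genes of these lists moved less. Sox4, which holds progenitors in an immature state, fell 1.27-fold (-0.35 ± 0.07, edgeR adjusted p = 0.0401), a call that ended without A (-0.33), C (-0.35) or D (-0.36). Mycl, a MYC family factor, fell 1.35-fold (-0.43 ± 0.09, edgeR adjusted p = 0.0410) and lost its call without A (-0.36) or C (-0.41). Pdgfra, the receptor for PDGF-AA, lay at -0.28 ± 0.08 (edgeR adjusted p = 0.113), and Cspg4, the NG2 proteoglycan, at -0.12 ± 0.09 (adjusted p = 0.509 in the same test). The lineage factors Olig1, Olig2 and Sox10 lay at -0.01, 0.01 and -0.05, with edgeR adjusted p-values of 0.978, 0.952 and 0.834.

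Of 22 genes of mature oligodendrocytes and myelin, 1 fell and 1 rose, or 9.09% called against 1.87% of all genes. The median was -0.003. Myrf, the transcription factor that switches on myelin genes, fell 1.73-fold. Its level was 10.1, 6.51, 12.7 and 13.8 CPM in KATi letters A to D and 22.9, 8.9, 27.4 and 17.6 CPM in SUV420i (log2 difference -0.79 ± 0.15, edgeR adjusted p = 0.0276). All letters were lower with KATi, letters A and C most, and the call ended without A (-0.67) or C (-0.67). Mbp itself stood at 6.73, 8.22, 188 and 364 CPM in KATi and 8.37, 13.1, 157 and 256 CPM in SUV420i. The difference was negative in letters A and B and positive in letters C and D, and the fitted value was -0.003 ± 0.15 (edgeR adjusted p = 0.996). Cryab, a small heat shock protein found in mature oligodendrocytes, rose 1.27-fold (0.35 ± 0.08, edgeR adjusted p = 0.0492), a call lost without any of the 4 letters (0.31 to 0.37). It overlaps Hspb2 on the opposite strand.

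**Figure D2:**
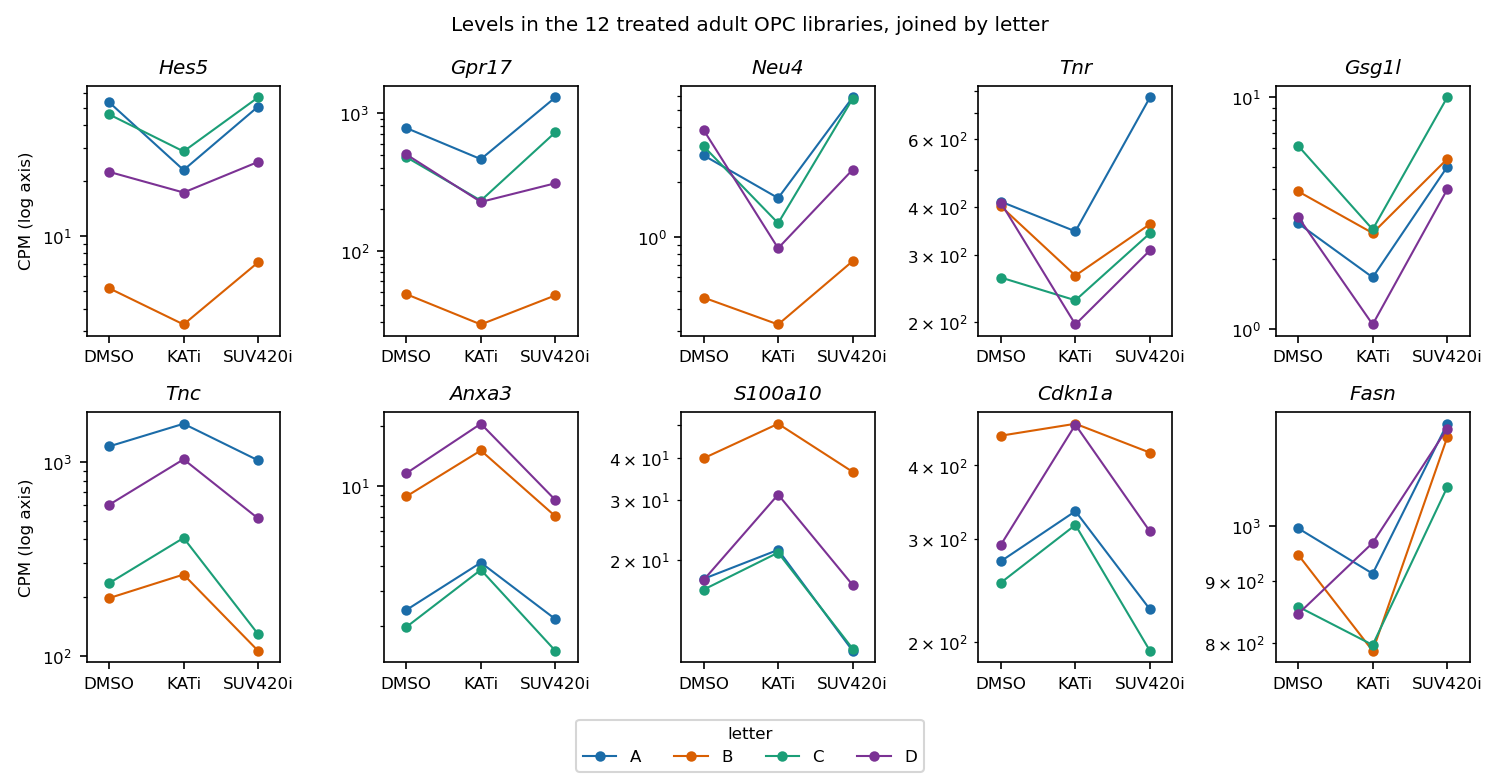
CPM (vertical axis, log scale, a range of its own in each panel) of 10 genes in the 12 treated adult libraries, with DMSO, KATi and SUV420i along the horizontal axis and a line joining the libraries of each letter. Hes5, Gpr17, Neu4, Tnr and Gsg1l are lower with KATi than with SUV420i in every letter, Tnc, Anxa3, S100a10 and Cdkn1a higher, and for Fasn the SUV420i libraries stand above both other groups.

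Notch signalling keeps progenitors undifferentiated through the HES factors, and BMP signalling acts through the ID factors, which turn OPCs toward an astrocyte-like fate. Of 21 measured targets and responders of Notch, BMP and Wnt signalling, 3 fell (Hes5, Nrarp and Id4) and 1 rose (Ccnd1). That is 19% called, against 1.87% of all genes, and 18 of 21 estimates were negative with a median of -0.27. Hes5 (ENSMUSG00000048001, GRCm38 chr4:154960923-154962371, plus strand), a direct Notch target, stood at 22.8, 3.27, 28.9 and 17.2 CPM in KATi letters A to D. SUV420i libraries held 50.8, 7.15, 57 and 25.3 CPM and DMSO libraries 53.6, 5.17, 46 and 22.3 CPM. KATi was lowest of the 3 treatments in every letter, whereas SUV420i and DMSO crossed in letter A. The fall against SUV420i was 1.94-fold (log2 difference -0.96 ± 0.11, edgeR adjusted p = 0.00301) and was called without any single letter.

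The upstream sequence of Hes5 is shown because the gene is the Notch target with the smallest p of its list. It holds letters bound by RBPJ, the DNA-binding partner of the Notch intracellular domain. The sequence is from RefSeq (GRCm38.p6, chr4:154960673-154960922, plus strand), 5′ to 3′, and covers the 250 bases before the start site. Capitals mark the motif GTGGGAA, searched on both strands.
Hes5: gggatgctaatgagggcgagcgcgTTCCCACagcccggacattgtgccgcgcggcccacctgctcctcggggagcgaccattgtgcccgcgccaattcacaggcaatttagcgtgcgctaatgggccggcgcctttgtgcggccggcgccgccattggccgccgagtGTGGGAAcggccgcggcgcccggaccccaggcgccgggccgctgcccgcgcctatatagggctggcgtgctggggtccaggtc
The letters begin 226 bases before the start site on the reverse strand and 83 bases before it on the forward strand. GTGGGAA was present in 6.38% of 32851 RefSeq promoter windows of 300 bases (250 before and 50 after the start), in 8.21% of the 207 windows of genes lower with KATi and in 6.12% of the 98 windows of genes higher with KATi. In the list of responders 2 of 14 windows held it, and that of Nrarp did not. A match of letters describes the sequence only.

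Nrarp, a feedback inhibitor that Notch induces, fell 1.81-fold. It stood at 7.44, 4.19, 7.94 and 5.28 CPM in KATi letters A to D and at 18.6, 7.46, 12.9 and 7.29 CPM in SUV420i (log2 difference -0.85 ± 0.14, edgeR adjusted p = 0.0176). Each letter was lower with KATi, and the call ended without A (-0.69) or C (-0.90). Id4, an inhibitor of the basic helix-loop-helix factors that drive differentiation, fell 1.53-fold (-0.61 ± 0.11, edgeR adjusted p = 0.0259). Its call ended without A (-0.50) or C (-0.57). Other members of these families did not pass: Hes1 lay at 0.11 ± 0.10, Hey1 at -0.30 ± 0.10, Id1 at -0.16 ± 0.11 and Id3 at -0.22 ± 0.10 (edgeR adjusted p = 0.597, 0.159, 0.470 and 0.256).

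Of 20 astrocyte markers, 5 fell (Ndrg2, Aqp4, Id4, Gfap and Aldoc) and 0 rose, or 25% called against 1.87% of all genes. The median was -0.29, with 18 of 20 negative. The summed level of the list was 5852 to 8980 CPM with KATi, 7434 to 12700 CPM with SUV420i and 6563 to 10010 CPM with DMSO. Within letters the median difference was -0.545 in A and -0.40 in C, with all 20 members lower there, and -0.04 in B and -0.15 in D. Letters A and C were also those without which most calls were lost, and the part of astrocyte RNA in the other results was not tested. Without letter A, edgeR called 2 members of the list, and without letter C 1.

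Ndrg2, a cytoplasmic protein of astrocytes, stood at 158, 137, 277 and 154 CPM in KATi letters A to D and at 302, 214, 534 and 204 CPM in SUV420i. The groups overlapped, but each letter was lower with KATi, and the fall was 1.68-fold (log2 difference -0.74 ± 0.10, edgeR adjusted p = 0.00566), called without any single letter. Aqp4, the water channel of astrocyte endfeet, stood at 10.8, 76.6, 112 and 49.2 CPM in KATi and 30.9, 102, 186 and 99.4 CPM in SUV420i. All 4 letters were lower with KATi (-0.91 ± 0.14, edgeR adjusted p = 0.0125), and the call ended without letter C (-0.96). Gfap, the intermediate filament of astrocytes, stood at 6.8, 13.6, 56.7 and 57.2 CPM in KATi and 16.5, 17.4, 204 and 76.9 CPM in SUV420i. Letter C of SUV420i was the highest of the 8, and the log2 difference moved from -0.99 ± 0.21 (edgeR adjusted p = 0.0395) to -0.66 without that letter, where the call ended, as it did without A (-0.92). DESeq2 with the letter as block did not call Gfap on all letters (-1.0, adjusted p = 0.0866).

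Microglial markers summed to 20.3 to 23.3 CPM with KATi and 18.5 to 24.8 CPM with SUV420i, with C1qa, C1qb, Ly86, Trem2 and Tyrobp at 0 counts in both groups. Endothelial and mural markers summed to 16.5 to 36.4 CPM and 13.3 to 48.9 CPM, and edgeR called 0 of their 7 measured members, with 3 at an unadjusted p below 0.05 and 0 called by DESeq2 or limma voom. Neuronal markers summed to 1029 to 1927 CPM and 1248 to 1929 CPM. Of 14 measured members 1 fell and 0 rose in edgeR, or 7.14% called against 1.87% of all genes. At an unadjusted p below 0.05, 7 were lower and 0 higher, DESeq2 called 3 and limma voom 1, and the median difference was -0.27 with 10 of 14 negative. The part of neuronal RNA in the other results was not tested. The called member was Rbfox3, the neuronal splicing factor NeuN (-0.78 ± 0.15, edgeR adjusted p = 0.0305). Its level was at most 8.39 CPM in any of the 8 libraries, and its call was lost without any of the 4 letters (-0.80 to -0.77).

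Genes of the cell cycle leaned toward higher levels with KATi, but few passed the test. Of 46 genes of S phase, 46 had a positive estimate and 1 was called (Cdc45), and of 56 genes of G2 and M phase, 55 were positive and 3 called (Tubb4b, Gtse1 and Ckap2). The called shares were 2.17% for S phase, close to the 1.87% of all genes, and 5.36% for G2 and M phase. The medians were 0.42 and 0.37, against 0.004 over all genes. At an unadjusted p below 0.05 there were 40 and 41 members, all higher. The size of the lean differed between letters. The S phase median was 0.67 in letter A and 0.84 in C, with all 46 members higher, 0.17 in D with 39 of 46 higher, and -0.04 in B with 18 of 46 higher. For G2 and M phase genes it was 0.72 in A and 0.68 in C with all 56 higher, against -0.001 in B and 0.03 in D, with 28 and 33 of 56 higher. Without letter B, edgeR called 29 S phase and 22 G2 and M phase genes, and without A or without C it called 0 of either, while limma voom on all letters called 0 and 3 and DESeq2 15 and 8.

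**Figure D3:**
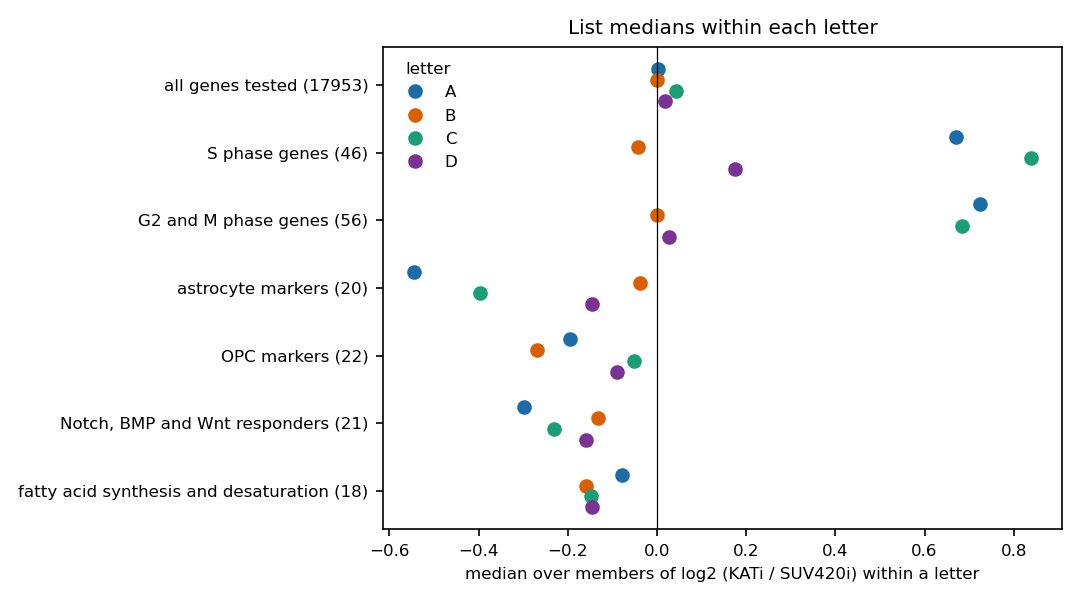
Median over the members of 6 gene lists and over all genes of the log2 ratio of KATi to SUV420i within each letter (horizontal axis), with 1 point a letter and the number of genes in parentheses. Cell cycle lists lie to the right and astrocyte markers to the left in letters A and C, close to 0 in letter B and nearer to 0 in letter D, while the fatty acid list is left of 0 in all 4 letters.

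Cdc45, which unwinds DNA at replication forks as part of the replicative helicase, stood at 36, 39.6, 25.6 and 39.7 CPM in KATi letters A to D and at 17.3, 38.7, 13.1 and 27.6 CPM in SUV420i. Letter B was nearly level between the treatments and letters A and C differed most. The log2 difference was 0.63 ± 0.14 (edgeR adjusted p = 0.0492), and the call ended without A (0.48), C (0.53) or D (0.65). Gtse1, a microtubule protein of G2 phase, rose 1.46-fold (0.55 ± 0.12, edgeR adjusted p = 0.0426) and Ckap2, a spindle protein, 1.39-fold (0.48 ± 0.11, edgeR adjusted p = 0.0486). Gtse1 lost its call without A (0.46), C (0.43) or D (0.59) and Ckap2 without A (0.39) or C (0.37). Mki67, the proliferation marker Ki-67, stood at 609, 992, 730 and 648 CPM in KATi and 422, 802, 339 and 738 CPM in SUV420i. It was higher with KATi in letters A, B and C and lower in D, and did not pass (0.43 ± 0.15, edgeR adjusted p = 0.172).

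Tubb4b, a beta-tubulin of the spindle, had the smallest p of the G2 and M phase list. Its level was 258, 209, 173 and 244 CPM in KATi letters A to D and 158, 180, 114 and 180 CPM in SUV420i. All letters were higher with KATi and B least (log2 difference 0.48 ± 0.09, edgeR adjusted p = 0.0259), and the call ended without A (0.40), C (0.45) or D (0.48). It overlaps Fam166a on the opposite strand. Its upstream sequence is shown because nearly all members of the list leaned the same way and genes of this phase are known for CCAAT boxes followed by a cell cycle homology region, the letters TTTGAA. The sequence is from RefSeq (GRCm38.p6, chr2:25224703-25224952, minus strand), 5′ to 3′, and covers the 250 bases before the start site. Capitals mark CCAAT and TTTGAA, searched on both strands and without overlap between them here.
Tubb4b: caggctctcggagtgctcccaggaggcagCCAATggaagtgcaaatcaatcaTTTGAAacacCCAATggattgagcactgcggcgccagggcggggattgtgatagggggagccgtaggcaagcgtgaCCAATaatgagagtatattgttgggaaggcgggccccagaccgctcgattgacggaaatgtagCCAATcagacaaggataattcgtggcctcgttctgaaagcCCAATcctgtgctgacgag
TTTGAA begins 198 bases before the start site, and CCAAT begins 221, 188, 122, 59 and 19 bases before it, all on the forward strand. Only the CCAAT at 221 precedes TTTGAA and the others follow it, so this sequence does not show several boxes followed by the region. TTTGAA was present in 64.8% of the 54 promoter windows of G2 and M phase genes, in 16.2% of the 37 windows of S phase genes and in 17.9% of all windows. CCAAT was present in 75.9%, 64.9% and 37.4%. In windows of genes called higher with KATi the shares were 13.3% for TTTGAA and 38.8% for CCAAT. In those of genes called lower they were 9.66% and 29.5%. The E2F letters TTTCCCGC were present in 18.9% of the S phase windows and 1.07% of all windows. The shares of the S phase and the G2 and M phase genes describe lists defined by their phase, and no share here says which factor acted.

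Of 29 measured genes that p53 induces or that arrest the cell cycle, 4 rose (Cdkn1a, Tnfrsf10b, Pmaip1 and Ei24) and 0 fell. That is 13.8% called, against 1.87% of all genes, and the median was 0.19. Cdkn1a encodes p21, which inhibits the cyclin-dependent kinases. It stood at 334, 471, 317 and 470 CPM in KATi letters A to D and at 227, 421, 193 and 309 CPM in SUV420i. Each letter was higher with KATi, B least, and the groups overlapped across letters (1.41-fold, log2 difference 0.50 ± 0.09, edgeR adjusted p = 0.0259). Its call ended without A (0.47), C (0.44) or D (0.45). The death receptor gene Tnfrsf10b rose 1.40-fold (0.49 ± 0.10, edgeR adjusted p = 0.0329), and the BH3-only gene Pmaip1 1.37-fold (0.45 ± 0.10, edgeR adjusted p = 0.0485). Tnfrsf10b lost its call without A (0.48) or C (0.40) and Pmaip1 without A (0.43), C (0.34) or D (0.52).

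Ccnd1, the D-type cyclin that carries mitogen signals into G1 phase, stood at 1094, 1563, 774 and 1406 CPM in KATi letters A to D and at 720, 1305, 444 and 1052 CPM in SUV420i. Every letter was higher with KATi (1.42-fold, log2 difference 0.51 ± 0.09, edgeR adjusted p = 0.0239). The call ended without A (0.47), C (0.42) or D (0.53). Bmf, a BH3-only protein that promotes cell death, was the 1 member called of 20 genes of apoptosis and survival, or 5% against 1.87% of all genes. It fell 1.59-fold (-0.67 ± 0.11, edgeR adjusted p = 0.0176), a call lost without A (-0.62) or C (-0.66). The list did not fall with it: 13 of the 20 estimates were positive, with a median of 0.116, and 3 were higher and 1 lower at an unadjusted p below 0.05.

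Matrix genes moved in both directions. Of 30 genes of the extracellular matrix and adhesion, 4 rose (Tnc, Lamc1, Fn1 and Sparc) and 2 fell (Tnr and Col4a1). That is 20% called, against 1.87% of all genes, and the median was 0.096. The 2 tenascins of the list went opposite ways. Tnc (ENSMUSG00000028364, GRCm38 chr4:63959785-64047015, minus strand) encodes tenascin-C, a matrix glycoprotein of the developing and injured brain. It stood at 1584, 263, 406 and 1037 CPM in KATi letters A to D, 1024, 106, 129 and 512 CPM in SUV420i and 1209, 198, 237 and 603 CPM in DMSO. DMSO lay between the inhibitors in every letter, and the rise of KATi over SUV420i was 2.21-fold (log2 difference 1.14 ± 0.13, edgeR adjusted p = 0.00301), called without any single letter. Tnc overlaps the annotated transcript 8030451A03Rik on the opposite strand.

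Col4a1, a chain of basement membrane collagen, stood at 15.3, 16, 19.3 and 18.3 CPM in KATi letters A to D, at 24.5, 21.5, 26.8 and 25.2 CPM in SUV420i, and at 15.2, 18.2, 18.8 and 18.6 CPM in DMSO. All SUV420i libraries lay above all KATi and all DMSO libraries (log2 difference -0.52 ± 0.09, edgeR adjusted p = 0.0222), and the call ended without A (-0.48) or C (-0.53). It overlaps Col4a2 on the opposite strand. Lamc1, a laminin chain, rose by 0.49 ± 0.09, Fn1, fibronectin, by 0.37 ± 0.08 and Sparc, a collagen-binding matrix protein, by 0.44 ± 0.10 (edgeR adjusted p = 0.0259, 0.0401 and 0.0492). Lamc1 lost its call without A, C or D, and Fn1 and Sparc without any of the 4 letters.

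Angpt2, Anxa3 and S100a10 were among the 12 largest called rises at a mean log2 CPM of 2 or more. Angpt2, a secreted angiopoietin that acts on vessels, stood at 8.12, 7.43, 2.29 and 5.64 CPM in KATi letters A to D and at 2.41, 3.58, 0.865 and 2.43 CPM in SUV420i. Letters A, B and D of KATi lay above every SUV420i library (2.53-fold, log2 difference 1.34 ± 0.16, edgeR adjusted p = 0.00403). Anxa3, a calcium-dependent membrane-binding annexin, stood at 4.15, 15.1, 3.82 and 20.5 CPM in KATi and 2.16, 7.07, 1.5 and 8.52 CPM in SUV420i. Letters B and D were high and A and C low in both groups, and each letter was higher with KATi (2.23-fold, log2 difference 1.15 ± 0.12, edgeR adjusted p = 0.00264). S100a10, the partner of annexin A2 at the cell membrane, stood at 21.4, 50.3, 21 and 31.1 CPM in KATi and 10.8, 36.3, 11 and 16.9 CPM in SUV420i (0.80 ± 0.10, edgeR adjusted p = 0.00512). These 3 genes were called without any single letter.

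The same held for Adamts14, a protease that trims procollagen (0.97 ± 0.11, edgeR adjusted p = 0.00264), Col18a1, the collagen that yields endostatin (1.06 ± 0.15, edgeR adjusted p = 0.00863), Rab26, a small GTPase of secretory vesicles (0.86 ± 0.11, edgeR adjusted p = 0.00512), and Tubb6, a beta-tubulin (0.78 ± 0.11, edgeR adjusted p = 0.00815). Rab26 overlaps Traf7 on the same strand. Tnfrsf12a, the TWEAK receptor, rose by 0.80 ± 0.17 on the log2 scale, and Lpin3, a phosphatidate phosphatase, by 0.80 ± 0.13 (edgeR adjusted p = 0.0395 and 0.0176). Tnfrsf12a lost its call without A (0.90), C (0.67) or D (0.63), and Lpin3 without C (0.85) or D (0.77).

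Gsg1l, Draxin, Tmem100 and Cyp4f15 were among the 12 largest called falls at that level. Gsg1l (ENSMUSG00000046182, GRCm38 chr7:125878420-126082411, minus strand) encodes an auxiliary subunit of AMPA glutamate receptors. It stood at 1.67, 2.59, 2.68 and 1.04 CPM in KATi letters A to D and at 5.00, 5.41, 9.98 and 3.99 CPM in SUV420i. The 2 groups did not overlap, and the fall was 3.07-fold (log2 difference -1.62 ± 0.18, edgeR adjusted p = 0.00264), called without any single letter. Draxin, a repulsive axon guidance protein, stood at 10.1, 11.8, 63.6 and 19.1 CPM in KATi and 22.1, 16.4, 123 and 48 CPM in SUV420i. Letter C was high in both groups and each letter lower with KATi (-0.99 ± 0.12, edgeR adjusted p = 0.00429), again without dependence on a single letter. Tmem100, a membrane protein that responds to BMP signalling, stood at 38.9, 15.6, 25.3 and 16 CPM in KATi and 78.8, 23.5, 50 and 32.6 CPM in SUV420i (-0.92 ± 0.10, edgeR adjusted p = 0.00264), and Cyp4f15, a fatty acid hydroxylase, fell 2.0-fold (-1.0 ± 0.11, edgeR adjusted p = 0.00264). Both were called without any single letter.

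Further large falls depended on 1 or more letters. Gjd2, the gap junction protein connexin 36, fell by 1.03 ± 0.17 on the log2 scale, Mc5r, a melanocortin receptor, by 1.03 ± 0.15, and the receptor gene Gpr27 by 0.96 ± 0.16 (edgeR adjusted p = 0.0157, 0.00928 and 0.0176). Gjd2 lost its call without A (-0.98) or C (-1.02), Mc5r without C (-1.03) and Gpr27 without C (-0.93). Tmem132b, a neural membrane protein, fell by 0.95 ± 0.16 (edgeR adjusted p = 0.0176) and lost its call without C (-0.90) or D (-0.98). The complement gene C4b stood at 1.16, 6.42, 7.27 and 5.5 CPM in KATi letters A to D and at 1.99, 9.74, 25.8 and 8.07 CPM in SUV420i. Letter C of SUV420i was highest, and the difference of -1.0 ± 0.21 (edgeR adjusted p = 0.0373) was -0.63 without that letter, where the call ended, as without A (-1.05) or D (-1.19).

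OPCs receive synapses and carry voltage-gated channels. Of 29 of their channel and neurotransmitter receptor genes, 3 fell, Scn3a and Grin3a among them, and 0 rose. That is 10.3% called, against 1.87% of all genes, and 22 of the 29 estimates were negative with a median of -0.11. Letter C went the other way: the list's median was -0.169, -0.225, 0.11 and -0.296 in letters A to D, with 18 of 29 members higher with KATi in C. Scn3a, a voltage-gated sodium channel, stood at 20.2, 7.33, 9.05 and 4.6 CPM in KATi letters A to D and at 35.3, 10.8, 13.1 and 9.7 CPM in SUV420i. Letter A was high in both groups, and each letter was lower with KATi (-0.75 ± 0.12, edgeR adjusted p = 0.0128). The call ended without A (-0.74). Grin3a, an NMDA receptor subunit gene, fell by 0.41 ± 0.07 (edgeR adjusted p = 0.0235) and lost its call without A (-0.40) or C (-0.43).

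In lipid synthesis the SUV420i libraries stood above the KATi and DMSO libraries for Fasn, while the untreated adult libraries lay near the SUV420i level. Of 18 genes of fatty acid synthesis and desaturation, 2 fell (Fasn and Scd1) and 0 rose, or 11.1% called against 1.87% of all genes. The median was -0.15. The list's median was -0.08, -0.16, -0.15 and -0.15 in letters A to D, so all letters leaned the same way. Fasn, the fatty acid synthase, stood at 913, 788, 797 and 968 CPM in KATi letters A to D, 1214, 1183, 1076 and 1203 CPM in SUV420i and 995, 946, 857 and 845 CPM in DMSO. All SUV420i libraries lay above all KATi and DMSO libraries, and KATi and DMSO overlapped (log2 difference -0.45 ± 0.08, edgeR adjusted p = 0.0208). The untreated adult libraries held 1137 and 1234 CPM of Fasn, also above all KATi and DMSO libraries. Scd1, which desaturates stearate, was lower with KATi than with SUV420i by 0.38 ± 0.08 (edgeR adjusted p = 0.0393). Its log2 difference from DMSO was 0.006 with KATi and 0.40 with SUV420i. The call on Fasn ended without A (-0.47) or C (-0.44), and that on Scd1 without A (-0.42), C (-0.35) or D (-0.34). Of 26 genes of cholesterol synthesis edgeR called 0, with 5 at an unadjusted p below 0.05 and 1 called by DESeq2, and their median was -0.04.

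**Figure D4:**
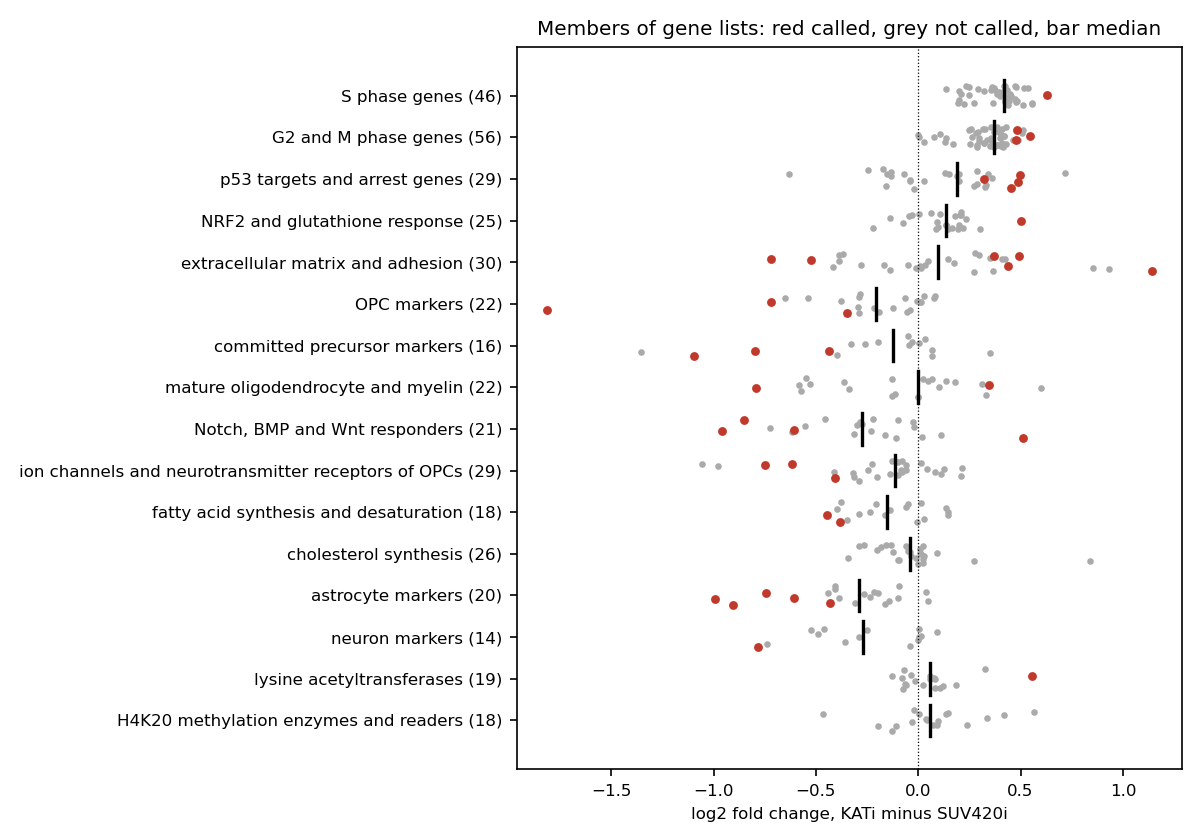
Log2 fold change of KATi minus SUV420i (horizontal axis) for every measured member of 16 gene lists, with the number measured in parentheses, called members in red, other members in grey and the median as a bar. The cell cycle lists lie to the right of 0 with few red points, while OPC, precursor, Notch and astrocyte lists reach far to the left.

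In 4 lists of stress and xenobiotic genes 1 member each was called, beside 1.87% of all genes tested, and the values below are those of single genes and not of the lists. Hmox1, the heme oxygenase that NRF2 induces, stood at 69.9, 158, 67.5 and 105 CPM in KATi letters A to D and at 53.7, 89.5, 56 and 70.6 CPM in SUV420i. It was higher with KATi in each letter, B most (0.50 ± 0.10, edgeR adjusted p = 0.0326), and was the 1 member called of 25 genes of the NRF2 and glutathione response, of which 20 had positive estimates (median 0.135). The call ended without A (0.53), C (0.59) or D (0.47). Slc3a2, a chain of amino acid exchangers, was the 1 called of 21 genes of the integrated stress response (0.40 ± 0.08, edgeR adjusted p = 0.0327), lost without A (0.41), C (0.43) or D (0.32). Ephx1, a microsomal epoxide hydrolase, was the 1 called of 8 xenobiotic response genes (0.37 ± 0.08, edgeR adjusted p = 0.0337), lost without A (0.40), C (0.40) or D (0.33). Slc30a10, a manganese exporter, fell among 12 metal-handling genes (-0.87 ± 0.19, edgeR adjusted p = 0.0409), lost without A (-0.70), C (-0.76) or D (-0.94).

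Of 28 interferon response genes, 1 fell (3.57% called, against 1.87% of all genes) and 0 rose. The gene was H2-K1, a classical MHC class I gene. It stood at 16.1, 29.3, 27.6 and 26.9 CPM in KATi letters A to D, 25.5, 37.1, 40.6 and 31.8 CPM in SUV420i and 17.9, 28.8, 27.4 and 22.9 CPM in DMSO. SUV420i was the highest of the 3 treatments in every letter, and KATi and DMSO overlapped (-0.46 ± 0.10, edgeR adjusted p = 0.0388), and the call ended without A (-0.40) or C (-0.41). As an MHC gene it has close copies that can share reads. Of 14 zinc finger and imprinted genes tied to heterochromatin, 2 fell and 0 rose (14.3% called, against 1.87% of all genes). They were Zfp57, which guards imprints (-0.49 ± 0.10, edgeR adjusted p = 0.0337), and the imprinted adaptor gene Grb10 (-0.59 ± 0.13, edgeR adjusted p = 0.0473). Zfp57 lost its call without A (-0.50), C (-0.44) or D (-0.50), and Grb10 without any of the 4 letters (-0.71 to -0.48).

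Few genes passed the test of either inhibitor against DMSO. Whether the inhibitor cultures held DMSO, and how much, is not in the labels, so a difference from these cultures may include one in solvent. Untreated adult cultures, whose time in culture is not in the labels, differed from the DMSO cultures for some genes. Gsg1l stood at 0.323 and 0.381 CPM in untreated cultures, below all 12 treated adult libraries. Adamts14 stood there at 59.3 and 61.7 CPM and Tnfrsf12a at 34.45 and 40.5 CPM, above all 12. Kat5, at 42.2 and 43.9 CPM, lay within the treated range. In a blocked fit of the 12 treated adult libraries (18452 genes), edgeR called 8 genes (0.0434%) for KATi against DMSO, 4 higher and 4 lower (0.0217% each), with 1437 at an unadjusted p below 0.05. For SUV420i against DMSO it called 1 (0.00542%), with 1386 at an unadjusted p below 0.05. The 2 comparisons share the DMSO libraries. DMSO lay between the inhibitors for 46.3% of the 17940 genes with a value in both fits. The 335 genes were chosen for a gap between the inhibitors, which favours another group lying inside it, so their counts are a description. Of the 123 genes higher with KATi, DMSO lay between for 112, and the median log2 differences from DMSO were 0.3 for KATi and -0.21 for SUV420i. Of the 212 lower genes DMSO lay between for 204, and the medians were -0.33 and 0.33.

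For some named genes the KATi estimate and for others the SUV420i estimate lay farther from that of the DMSO cultures. The KATi estimate was the farther for 73 of the 123 higher and 106 of the 212 lower genes, against 9047 of 17940 genes. For Gpr17 the log2 difference from DMSO was -0.93 with KATi and 0.21 with SUV420i, for Hes5 -0.75 and 0.22, and for Neu4 -1.38 and 0.46. For Fasn it was -0.08 with KATi and 0.38 with SUV420i, for Gfap -0.24 and 0.79, and for H2-K1 0.03 and 0.51. For Gpr27 the values were -0.24 and 0.72, for C4b -0.32 and 0.73, and for Nrarp -0.36 and 0.50. None of these values was called against DMSO by edgeR. The genes that were called were Anxa3 (0.83), Cgref1 (0.84), Adm (0.71), Klhdc7a (0.70), Draxin (-0.80), Txnip (-0.74), Prkcq (-0.63) and Sez6l (-0.56) for KATi, and for SUV420i Scg2 (0.98), the neuropeptide precursor secretogranin II. Adm encodes the peptide adrenomedullin and Txnip a thioredoxin-binding protein that restrains glucose uptake. The test of the difference between the inhibitors is the direct comparison above, not the contrast of these 2 counts.

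The same comparison in neonatal OPCs used 5 KATi and 5 SUV420i libraries from mice at postnatal day 5 and shares no library with the adult one. In a fit of 18 libraries with the letter within age as block (18726 genes), edgeR called 427 neonatal genes (2.28%). The neonatal difference had the adult sign for 324 of the 335 adult calls, or 96.7%, against 70.6% of all genes. Of the adult calls 174 were called at both ages in the same direction and 0 in opposite directions, which is 51.9% of the adult and 40.7% of the neonatal calls. Hes5 differed by -1.0 in neonatal and -0.96 in adult cells, Gpr17 by -1.21 and -1.10, Neu4 by -1.94 and -1.81, and Anxa3 by 1.18 and 1.15, all called at both ages.

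**Figure D5:**
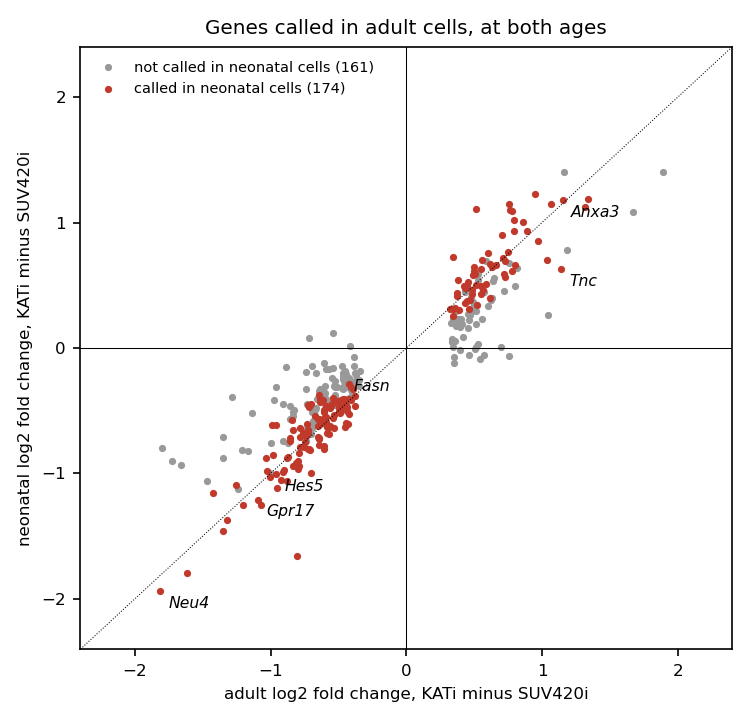
Log2 fold change of KATi minus SUV420i in neonatal OPCs (vertical axis) against that in adult OPCs (horizontal axis) for the 335 genes called in adult cells, with the 174 called at both ages in red, the other 161 in grey and the dotted line marking equal values. Most points lie at the lower left and upper right, and Fasn lies nearer to 0 in neonatal than in adult cells.

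No gene was particular to the adult cells by the test of the difference between ages. The interaction called 0 of 18726 genes in edgeR (0%, 453 at an unadjusted p below 0.05, smallest adjusted p = 0.999) and 0 in DESeq2. Gaps between the ages for single genes are therefore values only. Fasn differed by -0.45 in adult and -0.21 in neonatal cells, and Mbp by -0.003 and -0.70, the last called in neonatal cells only (edgeR adjusted p = 0.0259), with an interaction that was not called.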

How the data were processed

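Values were taken from the deposited table of raw counts, which gives unnormalized whole numbers of reads for 56980 Ensembl gene identifiers. Per the submitters' processing notes, the tools were featureCounts, Subread, DESeq2 and CASAVA 1.8.2 and the build mm10, with no role given for each. Which annotation and strand setting served the counting is not given in the sources used here, so reads of overlapping or antisense genes cannot be told apart. GENCODE M21 (GRCm38, which mm10 denotes) gave symbols for 52073 identifiers and coordinates.

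Genes passing filterByExpr (minimum count 10) in the 8 libraries, 17953 with 99.9% of counts, were scaled by TMM factors (0.952 to 1.02) and fitted in edgeR 4.0.16 (R 4.3.3) with the letter as block. SE is the log2 fold change divided by the square root of F, p-values were adjusted by Benjamini-Hochberg over all genes tested, and a gene was called below 0.05. CPM uses TMM-scaled totals, and ratios within a letter add 0.5 CPM. The shallowest of the 8 libraries held 26.9 M counts. The letters pair the libraries, letter D least: deviations from group means of same-letter KATi and SUV420i libraries correlated over genes at 0.65, 0.68, 0.53 and 0.23 for A to D. Across letters the correlations ran from -0.41 to 0.22. The highest of them, KATi letter C with SUV420i letter D, was close to that of the D pair. No 2 libraries of a group agreed within sampling noise (smallest chi-square per degree of freedom 37.6).

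Named genes were the 12 largest called rises and falls at a mean log2 CPM of 2 or more and with 1 direction in all 4 letters, without predicted, mitochondrial and ribosomal genes and pseudogenes, up to 3 called members of each of 37 gene lists by smallest p, and 13 genes always given. A few genes the rule takes are not reported here. The members and lists were chosen with earlier results of these data known. Olig1, Olig2, Sox10, Hes1, Hey1, Id1, Id3, Kmt5a, Lamc1, Fn1, Sparc, Aldoc, Ei24 and the genes called only against DMSO were added after their values were seen. On simulated counts for these 17953 genes, changes were set only in genes at a mean log2 CPM of 2 or more. Of these, 75 of 80 changes of 1.5-fold (93.8%), 70 of 70 of 2-fold and 50 of 50 of 3-fold were recovered, beside 18 false calls. Each change was equal in every letter and the noise came from the blocked fit itself, so these shares do not give the power in the real data. Alternatives were no block, other libraries in the fit, RLE factors, other filters, DESeq2 1.42.0, limma voom (3.58.1) and leaving out letters.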

Additional observations from a re-analysis of the deposited data

Results flagged for a closer look

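In 8 of 132 sets of 4 libraries (the KATi or the SUV420i group of a reported gene), 1 library lay so far from the other 3 that its gap exceeded Dixon's 95% critical value of 0.829 of the range. Chance alone puts about 1 in 20 sets past it. Letter B was the high one for Col18a1 in both groups, at 22.9 CPM in KATi (others 5.27 to 7.62) and 8.25 CPM in SUV420i (others 3 to 3.54) and for Slc3a2 in SUV420i at 211 CPM (others 129 to 133). Letter A was high for Tnr in SUV420i at 771 CPM (others 308 to 360), for Scn3a in SUV420i at 35.3 CPM (others 9.69 to 13.1) and for Gpr27 in KATi at 4.62 CPM (others 2.16 to 2.49). Letter C was high in KATi for Draxin at 63.6 CPM (others 10.1 to 19.2) and for Ndrg2 at 277 CPM (others 137 to 158). Without letter B the differences were 0.89 for Col18a1 and 0.41 for Slc3a2, without letter A they were -0.58 for Tnr, -0.74 for Scn3a and -1.08 for Gpr27, and without letter C -0.99 for Draxin and -0.66 for Ndrg2, all in the direction given with all letters. Of these calls, that on Scn3a was lost without letter A.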

How the results depend on the processing

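The count of 335 called genes moved with the replicate block, the filter, the tool and the letters. With no replicate block edgeR called 0 (598 at an unadjusted p below 0.05), and with no block and all 32 libraries 0 (871). With the pairing kept, it was 412 with the adult DMSO libraries in the fit, 454 with 26 libraries of both ages, 316 with RLE factors, 395 with at least 1 CPM in 4 libraries and 348 in limma voom. It was 621 in DESeq2, of which 330 were among the 335, and 1221 with no filter on low counts. Leaving out 1 replicate gave 29 to 671 calls, letters A and B only 0 (1525 at an unadjusted p below 0.05), and letters C and D only 165. The cause of these moves was not tested. The called genes kept their sign in every one of these fits in which they were tested. The fits reuse the libraries that chose the 335, and 334 of these had 1 direction in all 4 letters, so the kept signs are a description. Of the 335, 26 were called without any single letter, among them Sez6l, Miat, Lgals1, Msn and Kit, and 40 were called in none of the 4 fits that leave a letter out. Of the 59 called named genes, 35 lost the call without letter A, 4 without B, 42 without C and 22 without D. With all letters and the block kept, other fits ended the call on 10 named genes: DESeq2 on Gfap, limma voom on Cdc45 (0.60) and Grb10 (-0.56), the DMSO libraries on Cdc45 (0.61), RLE factors on Cdc45 (0.62), Ckap2 (0.47), Cryab (0.33) and Pmaip1 (0.44), the filter of 1 CPM on Cryab (0.33), and the 26 libraries of both ages on Aqp4 (-0.91), Bmf (-0.66), Cryab (0.35), Scn3a (-0.73) and Tnr. The interaction with age stayed at 0 calls with no replicate block, with RLE factors, in DESeq2 and without any adult letter. Neonatal letters were not left out. Precision is limited by the 4 pairs, and no fit at lower depth was run.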

Other observations

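Some groups were not on a list, and their genes were chosen after their values were seen, so their counts are descriptions. Lgals1, the glycan-binding protein galectin-1, stood at 195, 345, 190 and 329 CPM in KATi letters A to D and at 113, 234, 102 and 200 CPM in SUV420i, higher with KATi in each letter (log2 difference 0.73 ± 0.08, edgeR adjusted p = 0.00264). Msn, which links actin to the membrane, stood at 437, 353, 314 and 424 CPM in KATi and 290, 253, 186 and 286 CPM in SUV420i, with no overlap (0.59 ± 0.07, edgeR adjusted p = 0.00496), while its relative Ezr fell (-0.51 ± 0.11, edgeR adjusted p = 0.0476), a call lost without A or C. Of 8 measured annexins 2 rose (Anxa3 and Anxa2), of 8 S100 proteins 2 rose (S100a10 and S100a11), and of 4 EH-domain proteins of membrane recycling 2 rose (Ehd2 and Ehd4). Estimates were positive for 7 of the 8 annexins and 3 of the 4 EH-domain genes. For the S100 genes 6 of 8 were negative, with a median of -0.28, so that family did not rise as a whole. Anxa3 and S100a10 were called without any single letter, while Anxa2 and Ehd4 lost the call without A, C or D, S100a11 without A or D and Ehd2 without C. All genes tested gave 0.685% higher and 1.18% lower.

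Of 12 Eph receptors, which steer cells by contact, 2 rose (Epha2 and Ephb2) and 4 fell (Ephb1, Ephb6, Epha10 and Epha3). Each of these calls depended on letters: Epha2 and Ephb2 lost it without A, C or D, Ephb1, Ephb6 and Epha3 without A or C, and Epha10 without any of the 4. Of 15 voltage-gated calcium channel subunits 3 fell (Cacna1b, Cacna2d2 and Cacnb1), 0 rose, and 14 had negative estimates. Each of these 3 calls was lost without at least 1 of the letters. Of 34 collagens 1 rose (Col18a1) and 4 fell, among them the cartilage-type collagen genes Col9a1 (-0.81 ± 0.18), Col9a2 (-0.83 ± 0.13) and Col11a2 (-0.82 ± 0.17), with edgeR adjusted p-values of 0.0491, 0.0125 and 0.0370 and calls lost without A or C. Of 85 nuclear subunits of the respiratory chain 78 had positive estimates with a median of 0.15, and 3 rose (Uqcrb and Cox7b, lost without A, C or D, and Atp5j, lost without any of the 4 letters), while the mitochondrial share of counts was higher with KATi in all 4 letters.

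Kit, the receptor for stem cell factor, fell by 0.61 ± 0.08 on the log2 scale and Miat, a long noncoding RNA of the nervous system, by 0.79 ± 0.08 (edgeR adjusted p = 0.00512 and 0.00264), both called without any single letter and both called in neonatal cells. Among retinoid genes Rarb, a retinoic acid receptor, rose by 0.72 ± 0.11, Aldh1a3 rose by 0.78 ± 0.17 and Aldh1a1 fell by 0.70 ± 0.13 (edgeR adjusted p = 0.0130, 0.0409 and 0.0269). The call on Rarb was lost without A or C, and those on both dehydrogenases without A, C or D.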
